A study of Mus musculus with 21 samples.

Results

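Of the snoRNA host transcripts that the deposited tables hold, 10 listed members of the Gas5 and Snhg families are described here: Gas5, Snhg1, Snhg3, Snhg4, Snhg5, Snhg6, Snhg8, Snhg12, Snhg15 and Snhg17. They were chosen by name, from a list that leaves out some further hosts in the tables, among 14698 genes in at least 1 table. Earlier results of these data were known when the members were chosen. All 4 tables held 9 of the 10, and Snhg4 was in the ruxo-wash table only. RNA-seq was carried out on Ba/F3, an interleukin-3-dependent mouse line of pro-B cells, into which JAK2-V617F had been brought by retrovirus, so that every group carried the mutant kinase. The 21 libraries formed 7 groups of 3. Cells were kept for 6 h with 1 μM ruxolitinib, with 1 μM CHZ868 or with the solvent DMSO. For the washouts, cells received ruxolitinib or CHZ868 at 1 μM, or DMSO, for 1 h, were rinsed with PBS, and kept for a further 6 h without inhibitor, and each washout experiment had its own DMSO-wash group. The comparisons asked how the host transcripts stood while JAK2 was blocked and after the inhibitor had been removed.

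Small nucleolar RNAs (snoRNAs) guide the chemical modification of ribosomal RNA, box C/D snoRNAs directing methylation and box H/ACA snoRNAs pseudouridylation. Most mammalian snoRNAs are not transcribed from promoters of their own but are cut out of introns of a host gene. The hosts studied here are noncoding: the introns carry the product, while the spliced exons are commonly degraded by nonsense-mediated decay, a translation-dependent pathway. Many hosts begin with a 5′ terminal oligopyrimidine (TOP) tract, like the genes of ribosomal proteins, which couples the RNA to growth signals. JAK2-V617F drives STAT5 signalling without cytokine, ruxolitinib is a type I inhibitor that binds the active kinase, and CHZ868 is a type II inhibitor that binds the inactive form.

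In the GENCODE annotation of GRCm38, Gas5 at chr1:161034422-161038539 (+ strand) encloses 9 separate loci annotated as snoRNA genes, among them Snord47, Snord78, Snord80 and Mir5117, a locus with a microRNA name. Snhg1 at chr19:8723475-8726443 (+) encloses 8, Snhg12 at chr4:132308623-132311024 (+) 4 and Snhg17 at chr2:158353700-158361580 (-) 3. Snhg3 at chr4:132348014-132353686 (-) holds Snora73a and Snora73b, and Snhg5 at chr9:88521050-88522929 (-) holds Snord50a and Snord50b. A single snoRNA gene lies in each of Snhg6 at chr1:9941959-9944118 (-; Snord87), Snhg8 at chr3:123507552-123508404 (-; Snora24) and Snhg15 at chr11:6525591-6528760 (-; Snora9). Each of these snoRNA genes lies in an intron of at least 1 transcript of its host. Snhg1 starts 106 bases from the oppositely directed Slc3a2, an amino acid transporter chain, and Gas5 starts 427 bases from Zbtb37, a zinc finger gene. Exons of Snhg3 share 135 bases on the same strand with Rcc1, the exchange factor of the nuclear GTPase Ran, and 705 bases on the other strand with Gm17300. Exons of Snhg6 share 127 bases on the other strand with Mcmdc2. Exons of Snhg17 share 132 bases on the same strand with Gm23925, a locus annotated both as a snoRNA and as a long noncoding RNA. Reads over such stretches may be split between the genes, and the values of Snhg3, Snhg6 and Snhg17 are uncertain to that extent.

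RefSeq start windows (GRCm38.p6) were at hand for 8 of the 10 members and are shown because the start of a host transcript is where the TOP tract would lie. Each run holds 20 bases before the annotated start and 30 bases from it on, 5′ to 3′ on the strand of the gene. Capitals mark a TOP-like tract, defined as C followed by at least 4 C or T, beginning within 5 bases of the start.
Gas5 (chr1:161035146-161035195, +): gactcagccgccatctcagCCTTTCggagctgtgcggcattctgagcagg
Snhg3 (chr4:132353657-132353706, -): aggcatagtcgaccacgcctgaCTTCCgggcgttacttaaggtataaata
Snhg8 (chr3:123508307-123508356, -): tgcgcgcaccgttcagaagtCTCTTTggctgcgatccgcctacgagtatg
Snhg12 (chr4:132308658-132308707, +): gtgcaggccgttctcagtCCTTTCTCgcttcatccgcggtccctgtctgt
Snhg1 (chr19:8723467-8723516, +): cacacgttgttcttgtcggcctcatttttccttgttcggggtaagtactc
Snhg5 (chr9:88522868-88522917, -): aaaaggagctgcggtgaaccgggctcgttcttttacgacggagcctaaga
Snhg15 (chr11:6528731-6528780, -): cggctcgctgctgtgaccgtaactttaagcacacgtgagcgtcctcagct
Snhg17 (chr2:158361493-158361542, -): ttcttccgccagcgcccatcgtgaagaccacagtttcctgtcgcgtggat
The tract was found at an annotated start of 4 of the 8, Gas5, Snhg3, Snhg8 and Snhg12, and at 21.2% of the 27025 genes with a window. Among the 8450 of these genes that were measured after 6 h of CHZ868, the share was 24.5%. RefSeq gave Gas5 a further start, upstream of the one shown, whose window held no tract. In the longer windows of 250 bases before to 50 after the start, on both strands, CACGTG, the E-box read by MYC, was in 1 of 8 (Snhg15) and in 8.09% of all genes. TTCNNNGAA, the STAT-type palindrome, was in 0 of 8 and in 9.55% of all genes. A match is a match of letters and no site of binding, and a window without a match says only that none lay in the stretch searched. For the tract that stretch is short: the printed windows of Snhg5 and Snhg17 hold a C followed by 4 C or T more than 5 bases from the start.

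The deposited values are log2 CPM, read counts scaled to a common library total. In 3 tables the low values were whole reads, and about 7880220 to 10673100 of them lay on the listed genes in a library. The depth of the ruxo-wash table is unknown. Nothing in the sources says that replicates came from separate cultures, so p-values measure the spread between these libraries, which may be technical. Of 15 pro-B markers, 3 were listed (Cd79a, Cd79b and Ptprc), while Pax5 and Ebf1 were not. All 3 chains of the interleukin-3 receptor were listed. Of the other lineages, 3 to 5 of 12 myeloid and mast cell markers, 5 or 6 of 7 erythroid markers and 1 of 7 T cell markers were listed. In 3 groups, 1 library stood apart, namely replicate 3 of the CHZ868-treated cells, replicate 2 of the ruxolitinib-treated cells and replicate 3 of the DMSO-wash controls to CHZ868. The mitochondrially encoded transcripts summed to 67637 CPM in CHZ868-treated replicate 3 against 52734 and 51582 in the other CHZ868-treated libraries. They summed to 36747 against 16774 and 17049 CPM in ruxolitinib-treated cells, and to 56433 against 28608 and 22524 CPM in the DMSO-wash group of the CHZ868 experiment. The same 3 libraries had the lowest median level of ribosomal protein genes in their groups. For part of the results, values without these libraries are given as well.

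After 6 h of CHZ868, 6 of the 9 measured host transcripts fell and none rose, at an adjusted p below 0.05 (limma-trend, Benjamini-Hochberg over 11670 genes). Of all genes tested, 26.4% were called lower and 26.8% higher. The median log2 difference of the 9 members was -0.65, while that of all genes was -0.0084. In bulk RNA, fewer cells and less RNA per cell cannot be told apart. The summed mitochondrial transcripts were 12928 to 13562 CPM in the DMSO-treated libraries and 51582 to 67637 CPM in the CHZ868-treated ones, and their part in the result was not tested.

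The largest fall was that of Snhg17, the host of 3 snoRNA genes. Its log2 CPM was 6.29, 6.45 and 6.38 with DMSO and 4.92, 4.95 and 4.69 with CHZ868, so that the groups lay more than 1 log2 unit apart. The log2 fold change was -1.52 ± 0.10 (SE, n = 3 per group; limma adjusted p = 8.8e-09), which leaves 0.348 of the DMSO level. Snhg5, the host of the box C/D snoRNAs Snord50a and Snord50b, measured 6.45, 6.38 and 6.37 with DMSO and 5.32, 5.26 and 4.84 with CHZ868. It fell by 1.26 ± 0.11 on the log2 scale (limma adjusted p = 3.3e-07). Snhg15, the host of the H/ACA snoRNA Snora9, measured 4.92, 4.76 and 4.87 with DMSO and 3.94, 3.54 and 3.38 with CHZ868. It fell by 1.23 ± 0.16 on the log2 scale (limma adjusted p = 1.5e-05). For these 3 hosts every CHZ868-treated library lay below every DMSO-treated one, and the calls held with each library left out in turn.

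Smaller falls were seen for the other 3. Snhg1, the host of Snord22 and 7 further snoRNA genes, measured 7.18, 7.09 and 7.02 with DMSO and 6.71, 6.54 and 5.87 with CHZ868, a log2 fold change of -0.72 ± 0.15 (limma adjusted p = 0.00086). Snhg6, the host of Snord87, measured 4.96, 4.94 and 4.72 with DMSO and 4.67, 4.15 and 3.86 with CHZ868, a log2 fold change of -0.65 ± 0.18 (limma adjusted p = 0.0063). Snhg12, which hosts Snora44, Snora61 and Snord99 among others, measured 4.71, 4.95 and 4.58 with DMSO and 4.46, 4.31 and 4.07 with CHZ868, a log2 fold change of -0.47 ± 0.15 (limma adjusted p = 0.014). The groups did not overlap for any of these hosts, with no share of all genes counted beside this. CHZ868-treated replicate 3 was the lowest library for each. Without that library the log2 fold change of Snhg1 was -0.47, and the gene was still called. Under robust empirical Bayes the adjusted p of Snhg1 was 0.059, the highest of a range that began at 1.9e-05 over the alternatives other than leaving out a library. Without DMSO-treated replicate 2 that of Snhg12 was 0.099, the highest of a range that began at 0.0063 over the left-out libraries.

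Gas5, Snhg3 and Snhg8 did not pass the test. Gas5, the host of Snord47, Snord78 and Snord80 among others, measured 6.58, 6.81 and 6.67 with DMSO and 7.06, 7.04 and 6.32 with CHZ868, a log2 difference of 0.12 with a 95% confidence interval of -0.19 to 0.43. Snhg3 measured 2.87, 3.14 and 3.28 with DMSO and 4.47, 3.95 and 2.60 with CHZ868, a difference of 0.58 (interval -0.16 to 1.31). Snhg8, the host of Snora24, measured 3.80, 3.67 and 3.46 with DMSO and 3.63, 3.74 and 2.74 with CHZ868, a difference of -0.27 (interval -0.79 to 0.25). In all 3 hosts, CHZ868-treated replicate 3 lay below the whole DMSO-treated group, and at least 1 of the other CHZ868-treated libraries did not. Without that library Gas5 was called higher by 0.36 (adjusted p = 0.00045; range over the left-out libraries 0.00045 to 0.99) and Snhg3 by 1.12 (adjusted p = 0.00021; range 0.00021 to 0.66), while the 6 falls stayed called. Snhg3 and Snhg8 were the most thinly covered, with 47 to 222 and 52 to 128 reads per library in this table. The 3 hosts that were not called are among the 4 with a TOP-like tract in the start windows printed above, which for Gas5 holds for 1 of its annotated starts. Of the 5 called hosts with a window, Snhg12 alone held such a tract within 5 bases of the start. With ruxolitinib, described below, Gas5 and Snhg3 were lower without overlap, and a link between the tract and the fall was not tested.

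**Figure D1:**
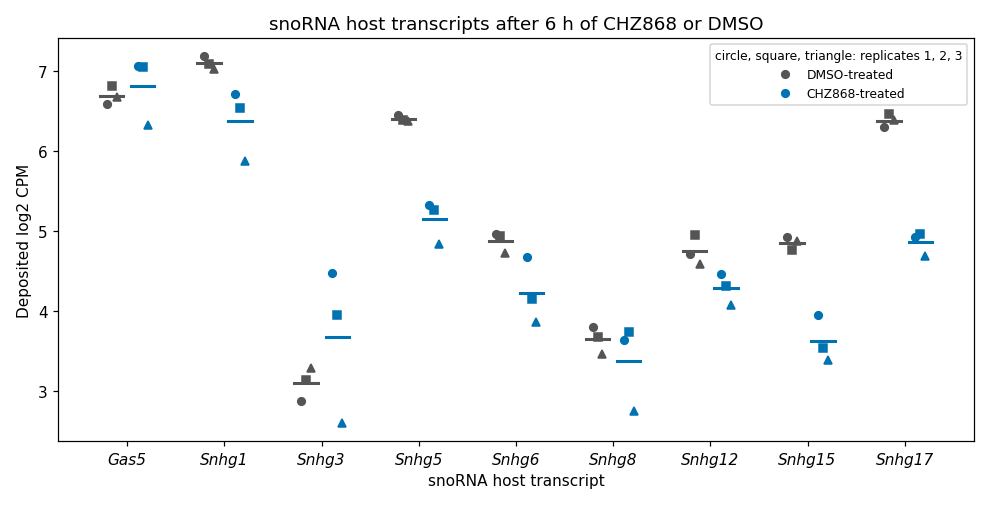
Deposited log2 CPM of 9 snoRNA host transcripts in each of the 3 DMSO-treated (grey) and 3 CHZ868-treated (blue) libraries after 6 h, with bars at the group means and marker shapes for replicates 1, 2 and 3. Snhg5, Snhg15 and Snhg17 lie well below their DMSO values, while in Gas5, Snhg3 and Snhg8 replicate 3 (triangle) parts from the other CHZ868-treated libraries.

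Ruxolitinib-treated and DMSO-treated cells after 6 h stand in separate tables. The median over 11624 shared genes was therefore subtracted in each library, and the differences are descriptions with no test. The 9 measured host transcripts were lower on average with ruxolitinib, with no overlap between the groups for 7 of them, while 20.1% of all shared genes were lower without overlap. The median difference of the members was -0.57 on the log2 scale, against 0.035 for all shared genes. Both 6 h comparisons use the same DMSO-treated libraries, so they are not independent of each other.

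As with CHZ868, the largest differences were those of Snhg17, Snhg15 and Snhg5. Snhg17 measured 0.31, -0.22 and 0.24 centred log2 units with ruxolitinib and 1.05, 1.20 and 1.14 with DMSO, a difference of -1.02. Snhg15 measured -1.38, -1.23 and -1.42 with ruxolitinib and -0.33, -0.49 and -0.37 with DMSO, a difference of -0.94. Snhg5 measured 0.54, 0.25 and 0.35 with ruxolitinib and 1.20, 1.13 and 1.12 with DMSO, a difference of -0.77. In each of the 3 hosts, the highest ruxolitinib-treated library was lower than the lowest one with DMSO.

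Snhg1 (-0.60), Snhg6 (-0.57), Snhg3 (-0.36) and Gas5 (-0.25) were also lower without overlap. For Gas5 the centred values were 1.08, 1.16 and 1.31 with ruxolitinib and 1.33, 1.55 and 1.42 with DMSO, so the groups were nearly touching. Snhg8 measured -1.93, -2.51 and -1.75 with ruxolitinib and -1.44, -1.58 and -1.79 with DMSO. Snhg12 measured -0.55, -0.82 and -0.37 with ruxolitinib and -0.54, -0.30 and -0.67 with DMSO. In both of these hosts the groups overlapped. Without ruxolitinib-treated replicate 2 the median difference of the members was -0.46, 7 members were still lower without overlap, and the difference of Snhg12 was 0.041. The difference was then -0.85 for Snhg17, -0.46 for Snhg1 and -0.24 for Snhg8.

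**Figure D2:**
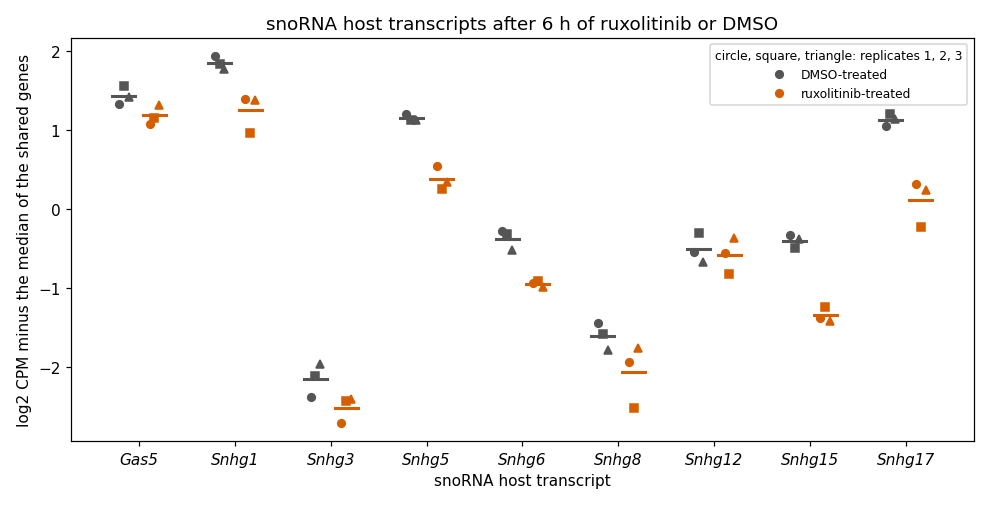
Centred log2 CPM (each library minus its median over the shared genes) of 9 snoRNA host transcripts in 3 DMSO-treated (grey) and 3 ruxolitinib-treated (orange) libraries after 6 h, with bars at the group means. In 7 hosts the ruxolitinib-treated points are all under the DMSO-treated points, with overlap in Snhg8 and Snhg12.

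At the matched dose and time, Snhg17 stood at -1.52 with CHZ868 and -1.02 with ruxolitinib, Snhg5 at -1.26 and -0.77, and Snhg15 at -1.23 and -0.94. These differences come from values on different scales and were not compared by a test. A ratio of 2 hosts within a library is free of the scaling between tables, and the hosts for it were chosen after their values were seen. The log2 ratio of Snhg17 to Gas5 was -0.35 to -0.29 in DMSO-treated libraries, -1.39 to -0.77 in ruxolitinib-treated libraries and -2.14 to -1.64 in CHZ868-treated libraries. That of Snhg5 to Gas5 was -0.43 to -0.13, -0.97 to -0.54 and -1.78 to -1.48 in the same order. For Snhg15 to Gas5 the ranges were -2.05 to -1.67, -2.75 to -2.41 and -3.53 to -2.96. None of the ranges overlapped for any of the 3 ratios, the libraries that stood apart included. Gas5 itself differed from DMSO by 0.12 with CHZ868 and by -0.25 with ruxolitinib, which widens the gap between the inhibitors in each ratio, and the hosts set against it were those with the largest falls.

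**Figure D3:**
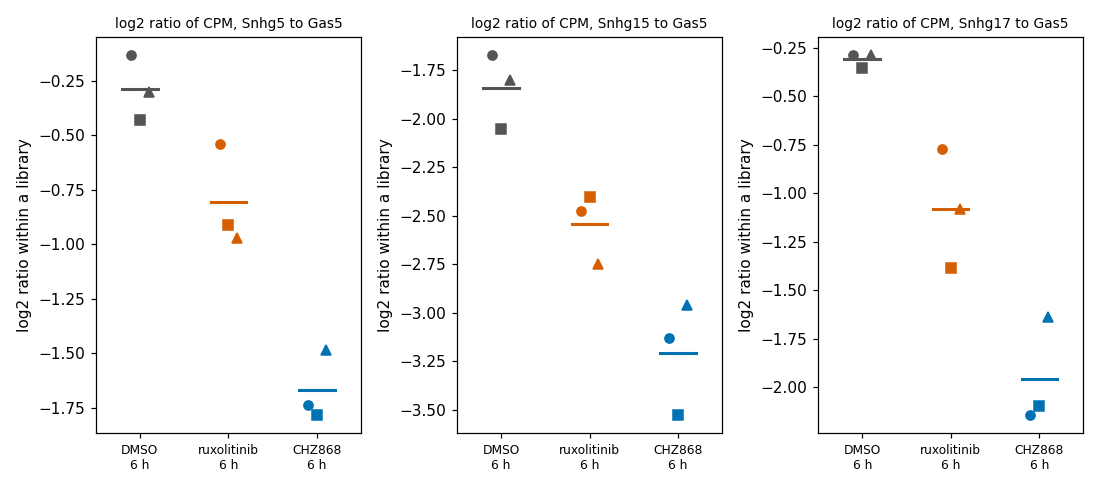
Log2 ratio of the CPM of Snhg5, Snhg15 and Snhg17 to that of Gas5 within each library after 6 h with DMSO (grey), ruxolitinib (orange) or CHZ868 (blue), with bars at the group means and marker shapes for replicates 1, 2 and 3. The vertical axes differ between panels and do not start at 0. The order is DMSO, ruxolitinib, CHZ868 from high to low in each panel.

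After CHZ868 washout, the 7 members that were lower on average at 6 h of CHZ868 lay on the other side of their control. Gas5 and Snhg3 had differed by 0.12 and 0.58 at 6 h, so they did not change side. All 9 measured members were higher than in the DMSO-wash group on average, by 0.24 to 0.71 on the log2 scale, with a median of 0.40 against 0.0053 for all genes. None passed the adjusted threshold (limma-trend, Benjamini-Hochberg over 11355 genes), where 1.96% of all genes were called higher. At an unadjusted p below 0.05, 7 of the 9 were higher, against 11.8% of all genes. The groups did not overlap, with CHZ868-wash above, for 7 of the 9, against 14.9% of all genes. The number of genes called in this table, 457, hung on single libraries. Leaving out control replicate 3 or 2 gave 1426 or 1298 calls, and leaving out any of the other 4 libraries gave 0 or 1. The summed mitochondrial transcripts were 17453 to 20951 CPM in the CHZ868-wash libraries and 22524 to 56433 CPM in their controls, and their part in the result was not tested.

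Snhg6 came nearest to the threshold, at 5.09, 5.24 and 5.32 log2 CPM after CHZ868 washout and 4.84, 4.83 and 4.54 in the DMSO-wash group. Its log2 fold change was 0.48 ± 0.13 (SE, n = 3 per group; limma adjusted p = 0.057). Snhg8 had the largest difference, with 3.15, 3.93 and 3.35 after washout against 2.91, 2.81 and 2.56, or 0.71 ± 0.23 (limma adjusted p = 0.093). Snhg5 measured 6.89, 7.05 and 7.12 after washout and 6.71, 6.76 and 6.74 in the controls, or 0.28 ± 0.09 (limma adjusted p = 0.087). In these 3 hosts every washout library lay above every control library.

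Snhg17 measured 5.88, 5.93 and 5.98 after washout and 5.62, 5.71 and 5.24 in the controls. Snhg12 measured 4.24, 4.05 and 4.11 against 3.75, 3.83 and 3.39, and Snhg3 measured 3.72, 3.47 and 3.49 against 3.20, 3.12 and 2.75. For Snhg1 the values were 6.53, 6.88 and 6.75 against 6.23, 6.58 and 6.16. DMSO-wash replicate 3 was the lowest control for all 4 of these hosts, and for Snhg6 and Snhg8 as well. The adjusted p was 0.092 for Snhg17, 0.11 for Snhg12 and Snhg3, and 0.095 for Snhg1 (limma). Snhg15, at 4.65, 4.76 and 4.73 against 4.26, 4.61 and 4.55, and Gas5, at 6.36, 6.76 and 6.81 against 6.24, 6.46 and 6.42, did not reach an unadjusted p of 0.05 (0.097 and 0.053, limma). With control replicate 3 left out, the median of the members was 0.32, and Snhg5 and Snhg6 were called. With control replicate 2 left out it was 0.52, and Snhg1, Snhg6 and Snhg17 were called.

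After ruxolitinib washout no host transcript passed the test. None of the 10 members was called (limma-trend, Benjamini-Hochberg over 13085 genes), where 0.0229% of all genes were. None had an unadjusted p below 0.05, against 7.03% of all genes. The log2 differences ran from -0.15 to 0.12, with a median of 0.012. Gas5 measured 9.06, 9.18 and 9.07 after washout and 9.08, 9.05 and 9.13 in the controls, with a 95% confidence interval of the difference of -0.08 to 0.12. Snhg4, listed in this table only, measured 7.27, 7.19 and 7.21 against 7.22, 7.16 and 7.27 (interval -0.10 to 0.11). Snhg17 had the largest difference, -0.15, from 6.16, 6.29 and 6.07 against 6.11, 6.48 and 6.37, and also the widest interval, -0.41 to 0.11. Snhg8 measured 6.90, 6.89 and 6.90 after washout against 6.98, 7.06 and 6.94, without overlap but not called (limma adjusted p = 0.72). The groups of the other members overlapped, and the share of all genes without overlap was not counted in this comparison.

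**Figure D4:**
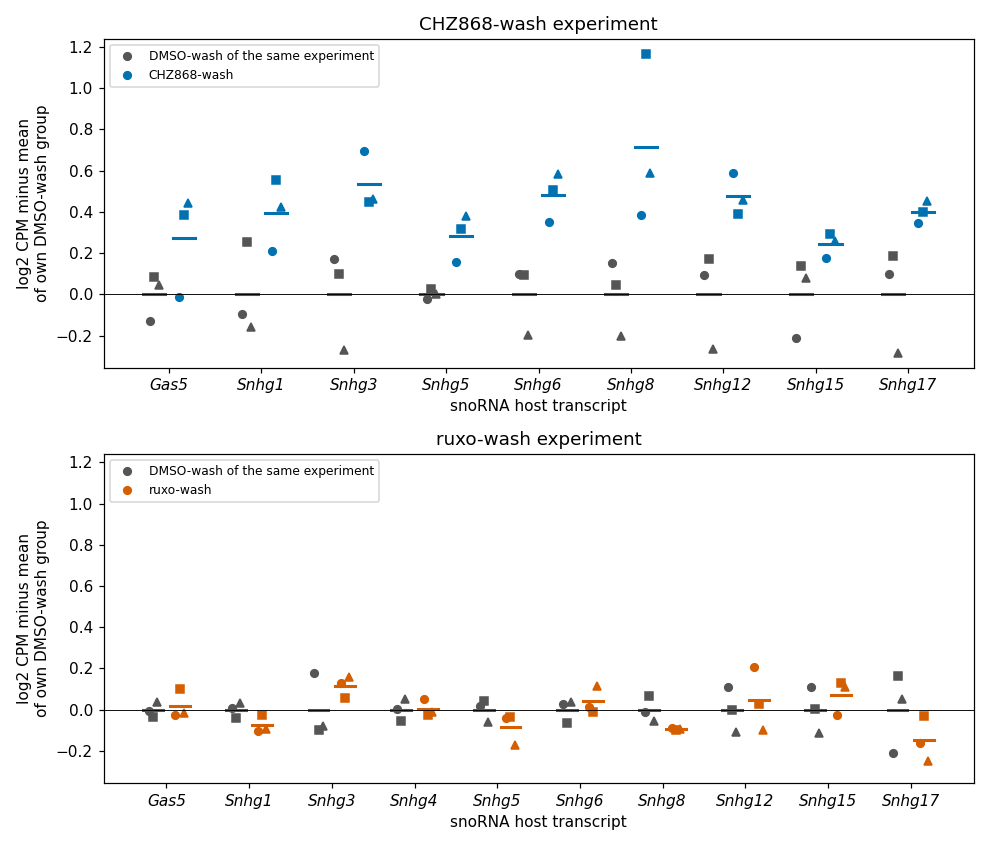
Log2 CPM of the host transcripts minus the mean of the DMSO-wash group of the same experiment, for CHZ868-wash (upper panel, blue) and ruxo-wash (lower panel, orange) libraries, with the DMSO-wash libraries in grey and bars at the group means. Mean differences are 0.24 to 0.71 in the upper panel and -0.15 to 0.12 in the lower one.

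The difference between the washouts was fitted on all 12 washout libraries over 10078 shared genes. The ruxolitinib washout effect was below the CHZ868 washout effect for all 9 shared members, by 0.17 (Snhg15) to 0.81 (Snhg8) on the log2 scale, with a median difference of -0.43. The inhibitor cannot be told apart from the experiment here, and the tables also differ in the level of the members, by 0.79 to 4.23 between the DMSO-wash groups. None passed the adjusted threshold (limma), which 1.9% of all genes did, with an adjusted p of 0.065 for Snhg5, 0.077 for Snhg8 and 0.087 for Snhg6. At an unadjusted p below 0.05, 7 of 9 members were lower, against 9% of all genes. The 95% confidence interval of the difference was -0.58 to -0.16 for Snhg5 and -1.29 to -0.32 for Snhg8. The count of called members was 4 when control replicate 2 to CHZ868 was left out, 1 when control replicate 3 or CHZ868-wash replicate 1 was, and 0 for each of the others.

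The CHZ868 effect after 6 h of exposure was set against that after washout in a fit of 12 libraries over 11175 shared genes. The 6 h effect was lower for 7 of the 9 members, against 23.8% of all genes (limma adjusted p below 0.05), with a median difference of -1.12 against -0.025 for all genes. The difference was -1.92 ± 0.16 for Snhg17 (SE; limma adjusted p = 1.5e-07), -1.54 ± 0.15 for Snhg5 and -1.47 ± 0.21 for Snhg15. Snhg6 and Snhg1 followed with -1.13 and -1.12, then Snhg8 with -0.99 and Snhg12 with -0.95. The differences of Gas5, -0.15 (95% confidence interval -0.63 to 0.32), and Snhg3, 0.043 (-0.93 to 1.01), did not pass. Exposure and experiment cannot be told apart in this comparison. When both CHZ868-treated replicate 3 and washout control replicate 3 were left out, a choice made after the data were seen, the median was -0.79. The difference of Snhg8 was then -0.57 and no longer called, and that of Snhg3 was 0.71 and called higher.

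**Figure D5:**
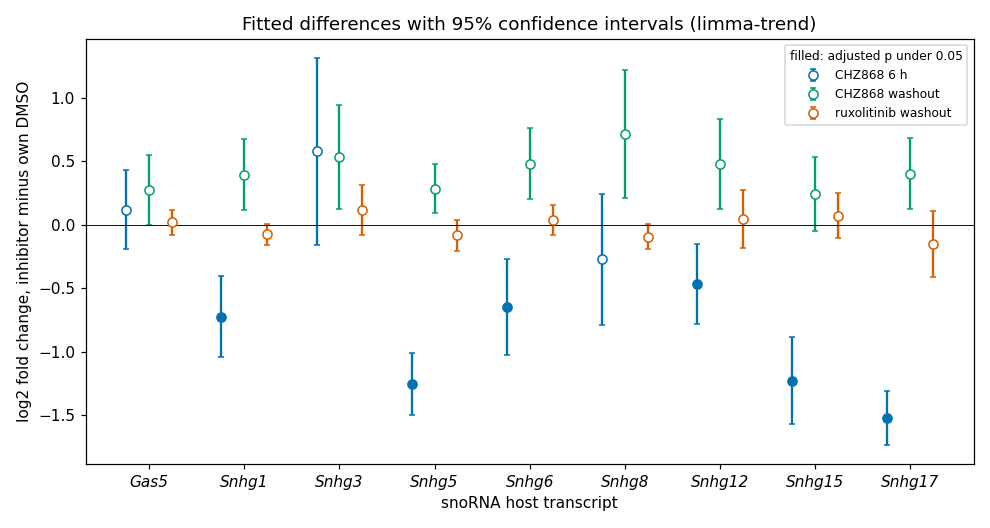
Fitted log2 differences of 9 host transcripts from their own DMSO group after 6 h of CHZ868 (blue), CHZ868 washout (green) and ruxolitinib washout (orange), with 95% confidence intervals and filled symbols where the adjusted p was below 0.05. The 6 filled symbols are all at 6 h of CHZ868 and below 0.

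Of 8 other noncoding hosts that were measured, 5 fell after 6 h of CHZ868 and none rose, with a median of -0.66. Of all genes, 26.4% were called lower and 26.8% higher. Snhg16 fell by 1.85, Snhg7 by 1.40, Zfas1 by 0.82, 1110038B12Rik by 0.67 and Snhg20 by 0.63 on the log2 scale. Without CHZ868-treated replicate 3 the log2 fold change of Zfas1 was -0.51, still called, and Snhg20 was no longer called. Zfas1 was not called under robust empirical Bayes. With ruxolitinib 6 of the 8 were lower without overlap, against 20.1% of all shared genes. The difference was -0.91 for Zfas1 and -0.86 for Snhg16. After CHZ868 washout, where 1.96% of all genes were called higher, Zfas1 was the single called gene of this list, higher by 0.80 (limma adjusted p = 0.038). That call was lost without the trend and with any of 4 libraries left out, at adjusted p-values of 0.10 to 0.17, in a range of 0.0071 to 0.17 over all alternatives. After ruxolitinib washout, where Snhg10 was measured in place of Snhg7, 0 of 8 were called by limma. An unadjusted p below 0.05 was found for 0 of them, against 7.03% of all genes.

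Protein-coding hosts moved in both directions. Of 23 ribosomal protein genes that host snoRNAs, 9 rose and 4 fell after 6 h of CHZ868, with a median of 0.20, against 26.8% and 26.4% of all genes. Rps2, a protein of the small subunit, rose by 1.20, while Rps13 fell by 0.75 and Rpl13 by 0.65 on the log2 scale. Of 20 further protein-coding hosts, 5 rose and 10 fell, with a median of -0.19. Rcc1, which shares an exon with Snhg3, fell by 1.09, and Nop56, at once a snoRNA host and a core protein of box C/D particles, by 0.92 on the log2 scale. With ruxolitinib, 13 of the 20 and 8 of the 23 were lower without overlap, against 20.1% of all shared genes.

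Among the proteins that bind snoRNAs, 2 of the 4 box C/D core genes fell with CHZ868 at 6 h, Nop56 and Nop58 (-0.42), while the methyltransferase gene Fbl rose by 0.25. Of the 4 box H/ACA core genes 3 fell, the pseudouridine synthase gene Dkc1 by 0.71, Gar1 by 0.67 and Nop10 by 0.32 on the log2 scale. The calls of Fbl and Nop10 were lost under some alternatives, both of them without the trend. With ruxolitinib 3 of 4 in each list were lower without overlap, Nop56 by a difference of -1.0 and Dkc1 by -1.26, against 20.1% of all shared genes. The CHZ868 counts of these 4-gene lists and of the next lists stand beside 26.8% of all genes called higher and 26.4% called lower. Of 10 assembly factors, 2 rose and 2 fell with CHZ868. Of 15 nonsense-mediated decay factors, 5 rose, among them Eif4a3 (0.51) and Smg9 (0.48), and 3 fell, namely Smg1 (-0.46), the kinase that phosphorylates Upf1, Smg5 (-0.48) and Upf1 itself (-0.38). Of 15 translation genes with TOP tracts, ribosomal proteins left out, 9 rose and 3 fell. Of 10 growth regulators 4 rose and 5 fell: Larp1, the TOP-binding protein, fell by 0.90, Myc by 0.27 on the log2 scale, and the translation inhibitor gene Pdcd4 rose by 0.78. Myc differed by -0.97 with ruxolitinib. Slc3a2 (-0.91) and Zbtb37 (-0.53), which start beside Snhg1 and Gas5 on the other strand, also fell with CHZ868. Of these partner hosts Snhg1 fell and Gas5 did not pass. Gm17300, which starts 1914 bases from Snhg3 on the other strand, did not pass (-0.28, limma adjusted p = 0.097). After ruxolitinib washout none of these lists held a called gene by limma. An unadjusted p below 0.05 was found for 7.03% of all genes. It was found for 6 of the 23 ribosomal protein hosts, 4 of the 20 further protein-coding hosts and 2 of the 4 box H/ACA core genes. The translation genes with TOP tracts held 2 of 15, the growth regulators 1 of 10, and the box C/D core, assembly and nonsense-mediated decay lists 0. Of the 23 ribosomal protein hosts 19 stood above their controls, with a median of 0.041.

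The 5 genes whose values followed the mean of the 9 shared members most closely over the 21 libraries, each value taken from the mean of its own control group, were Zfas1 (Pearson r = 0.969), Enpp4 (0.959), Srsf7 (0.958), Etnk1 (0.950) and Eif4a2 (0.950), out of 9973 genes in all tables. The points share libraries and control groups, so r is a description. Zfas1 and Eif4a2, an RNA helicase of translation initiation, are themselves snoRNA hosts. Srsf7, a splicing factor, and Enpp4 and Etnk1, enzyme genes, are not on the host lists.

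The paper's methods do not say how RNA was selected for the libraries. Rows named as snoRNAs were in the ruxo-wash table only, 56 of them, and none was called by limma. An unadjusted p below 0.05 was found for 6 of the 56, against 7.03% of all genes. Of the snoRNAs inside the members, 3 had a row. Snord87, hosted by Snhg6, measured 3.34, 1.71 and 1.80 log2 CPM in the DMSO-wash libraries and stood at the lowest value of the table, -3.45, in all ruxo-wash libraries (limma adjusted p = 0.25). Its host measured 7.58, 7.55 and 7.68 after washout and 7.59, 7.50 and 7.60 in the controls. Snord99, hosted by Snhg12, and Snora73a, hosted by Snhg3, varied by more than 4 log2 units within a group.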

How the data were processed

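The deposited values are log2 CPM per gene. Per the methods, the authors pseudo-aligned reads with kallisto to GRCm38, summed them per gene, removed lowly expressed genes and normalized by TMM in edgeR. The submitters' processing notes name STAR 2.7.3a, edgeR 4.0.16 and GRCm39, and which tool made which table is not given in the sources used here. The tables hold 11670 (CHZ868 and DMSO, 6 h), 11868 (ruxolitinib, 6 h), 11355 (CHZ868 washout) and 13085 genes (ruxolitinib washout). Comparisons within a table, and differences between effects, were fitted on the deposited values by limma-trend (limma 3.58.1, R 4.3.3), p-values adjusted by Benjamini-Hochberg across the genes tested and a threshold of 0.05. The fits were tested on simulated data. Ruxolitinib at 6 h was described after median centring, with no test. Within-library ratios were taken after removing the constant added before the logarithm. The members, lists, tests and rules for named genes (all members, list genes, neighbouring genes, the 5 genes most alike) were chosen with earlier results of these data known. Positions are from GENCODE vM21 and start windows from RefSeq. Alternatives were no trend, robust empirical Bayes, quantile normalization, median centring, a minimum mean of 1 or 3 log2 CPM, a pseudocount of 1 or 5 CPM, blocking on the replicate number and leaving out each library.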

Additional observations from a re-analysis of the deposited data

Results flagged for a closer look

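The effect of CHZ868 differed between 6 h of exposure and washout, by the test of the difference itself (limma on 12 libraries, Benjamini-Hochberg adjustment over 11175 genes), for 7 host transcripts. The 6 h effect minus the washout effect was -1.92 for Snhg17, -1.54 for Snhg5, -1.47 for Snhg15, -1.13 for Snhg6, -1.12 for Snhg1, -0.99 for Snhg8 and -0.95 for Snhg12. Over left-out libraries the adjusted p of Snhg8 ran from 0.018 to 0.10, and it was above 0.05 in 5 of the 12 fits. The other 6 stayed below 0.05 in all 12, with 0.0097 as the highest value (Snhg12). The mitochondrial transcripts summed to 51582 to 67637 CPM in the CHZ868-treated libraries and 17453 to 20951 CPM in the CHZ868-wash libraries, and their part in these differences was not tested.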

How the results depend on the processing

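The number of members called after 6 h of CHZ868 was 5 to 8 over all alternatives, and the number called for the 6 h effect minus the washout effect was 6 or 7. Left-out libraries moved the count of called members from 0 to as many as 3 for CHZ868 washout (range 0 to 3) and 4 for the difference between washouts (range 0 to 4). The cause was not tested. The table-wide counts moved by over 1.5 times for ruxolitinib washout (3 genes, 9 without the trend, 5 under robust empirical Bayes), for CHZ868 washout (457, 0 without the trend) and for the difference between washouts (191, 14 without the trend). The median difference after 6 h of ruxolitinib was -0.64 to -0.46 over left-out libraries, and -0.55 with no centring, where 5 members rather than 7 were lower without overlap.

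In the tested comparisons, differences that changed sign were all of members that had not passed the test. Under quantile normalization Gas5 stood at -0.013 and Snhg4 at -0.0062 after ruxolitinib washout. Without both libraries that stood apart, the difference of Gas5 between 6 h and washout was 0.070. Over left-out libraries, Gas5 ran from -0.0052 to 0.36 and Snhg8 from -0.45 to 0.043 after 6 h of CHZ868. After ruxolitinib washout Gas5 ran from -0.021 to 0.040, Snhg4 from -0.022 to 0.031 and Snhg12 from -0.035 to 0.12. Between 6 h and washout of CHZ868, Gas5 ran from -0.29 to 0.092 and Snhg3 from -0.36 to 0.58. At 6 h of ruxolitinib, which was not tested, Snhg12 ran from -0.18 to 0.041 over left-out libraries.

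Replicate numbers did not pair the samples: deviations of same-numbered libraries correlated at -0.054 to 0.051. With a replicate block, 6 members were called after 6 h of CHZ868, 0 after either washout, 0 for the difference between washouts and 7 for the difference between 6 h and washout. The block moved the table-wide count from 3 to 0 for ruxolitinib washout and from 191 to 6 for the difference between washouts. With 3 libraries per group, and 47 to 138 reads for Snhg8 in the CHZ868 washout table, small differences in thinly covered hosts could not be detected.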

Other observations

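The level of the same host transcripts differed between the DMSO-wash groups of the 2 washout experiments, which stand in separate tables with values of separate normalization. Gas5 stood at 9.05 to 9.13 log2 CPM in the ruxolitinib experiment and at 6.24 to 6.46 in the CHZ868 experiment. Snhg3 stood at 6.83 to 7.11 and 2.75 to 3.20, and Snhg8 at 6.94 to 7.06 and 2.56 to 2.91. All 9 shared members were higher in the ruxolitinib experiment, by 0.79 (Snhg17) to 4.23 (Snhg8), while the median difference over 10078 shared genes was -0.68. Ribosomal protein genes had median levels of 10.8 to 10.9 log2 CPM in the ruxo-wash table and 8.47 to 9.19 in the CHZ868-wash table. These levels were not tested and are given as values.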
